A study of Macaca mulatta with 6 samples.

Results

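Frizzled proteins are multi-pass membrane receptors that bind secreted WNT ligands through a cysteine-rich domain outside the cell. Together with the co-receptors LRP5 and LRP6 they recruit Dishevelled proteins and so stop the kinase GSK3 from marking beta-catenin for destruction, while other Frizzled complexes act on cell polarity without beta-catenin. In pluripotent stem cells WNT signalling takes part both in self-renewal and in the exit towards mesoderm and endoderm. The family is described here in 6 induced pluripotent stem cell (iPSC) libraries of rhesus monkey. Its members were taken by gene symbol, FZD1 to FZD10, and 9 of the 10 symbols were matched, each to 1 of 30246 gene rows. FZD9 was not matched and is not analysed here.

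The 4 naive lines, 2 male and 2 female, were kept in a medium with 15% serum replacement, 4 ng/ml bFGF, 10 ng/ml human LIF, 3 µM CHIR99021 (an inhibitor of GSK3, which acts below the Frizzled receptors), 0.5 µM PD0325901 (MEK), 10 µM SB203580 (p38) and 10 µM SP600125 (JNK). The 2 primed lines were male and were grown in a serum replacement (20%) medium with bFGF. Feeders were removed before lysis, the labels give the stage of all lines as embryo, and each group of 2 lines has n = 2 libraries, called 1 and 2 after their labels. No female primed line was analysed here, and the labels do not tie lines to donors.

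Values are FPKM, which are per length and so comparable between genes. The 8 pluripotency markers looked up (POU5F1, NANOG, SOX2, LIN28B, SALL4, TDGF1, DPPA4 and PODXL) summed to 1129 to 2002 FPKM in naive and 505 to 602 FPKM in primed libraries. By the limma test described below, 5 of them rose and 0 fell in naive against primed lines, where 11.3% of all rows were called. NANOG was at 0.933 and 2.09 FPKM in primed and 28.7 to 95.9 FPKM in naive libraries. TDGF1 was at 0 and 0.818 FPKM in primed and 11.9 to 111.2 FPKM in naive libraries. SOX2 was highest in the primed lines, at 140.8 and 124.1 FPKM. The part of these levels in the receptor differences was not tested. Depth, estimated from the deposited error bounds, was 1478692 and 1754857 fragments in the male naive libraries and 7607125 to 10013491 in the other 4, so low receptors were measured least precisely in male naive lines. For FZD1, FZD5 and FZD8 the male naive values rested on 11 to 28 fragments, and FZD5 in primed lines on 10 and 25. All 9 receptors reached 1 FPKM in at least 5 libraries and entered the test.

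FZD7 had the highest level of the family in all 6 libraries, and the make-up below it differed between the groups. Its share of the summed Frizzled FPKM was 34.2% and 38.7% in primed lines, 40.8% and 36.8% in male naive lines and 56.2% and 66.9% in female naive lines. The female naive libraries lay above the other 4, which overlapped. FZD2 held 27.7% and 32% of the sum in primed lines, 16.6% and 15.2% in male naive lines and 6.89% and 5.53% in female naive lines, with no overlap between the groups. FZD10 held 9.93% to 19.8% in the 4 male libraries and 1.35% and 1.08% in the female ones. FZD5 went the other way, from 0.211% and 0.787% in primed to 2.3% and 2.45% in male naive and 14.5% and 5.56% in female naive libraries. These shares are taken within a library, so a scaling factor per library leaves them as they are. The summed Frizzled FPKM itself was 140.3 and 143.9 (male naive), 187.8 and 133.1 (female naive) and 207.8 and 178.0 (primed).

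**Figure D1:**
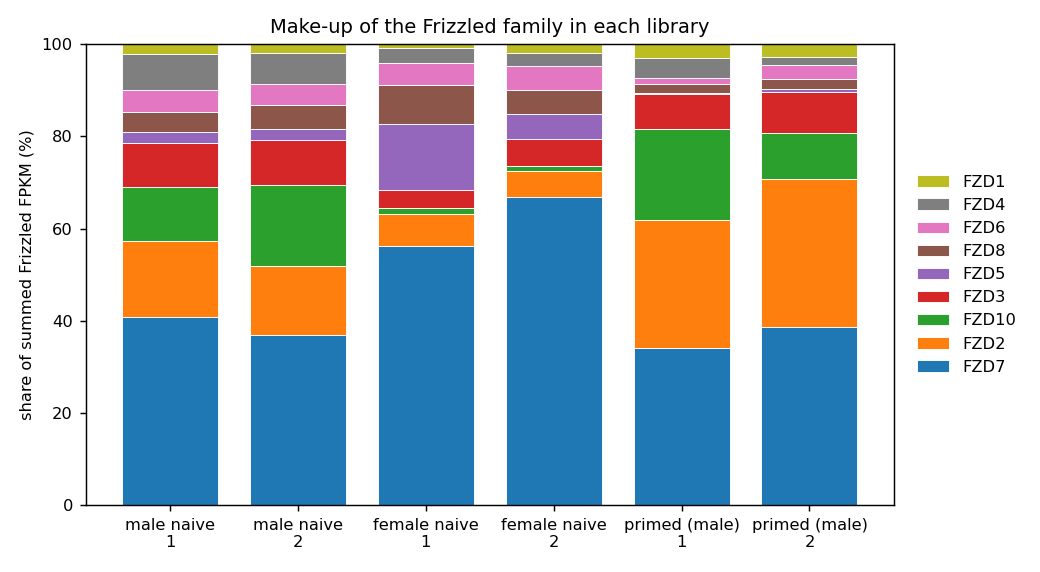
Share of each of 9 Frizzled receptors in the summed Frizzled FPKM (vertical axis, percent) for each of the 6 libraries (horizontal axis). The FZD7 segment runs from 34.2% in primed 1 to 66.9% in female naive 2, and the FZD2 segment from 5.53% in female naive 2 to 32% in primed 2.

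The order of levels in primed lines was FZD7, FZD2, FZD10, FZD3, and then 4 receptors at 2.54 to 9.17 FPKM (FZD4, FZD1, FZD8 and FZD6), all of whose ranges overlapped except those of FZD1 and FZD8, with FZD5 last. In male naive lines FZD7 was followed by FZD2 and FZD10, whose ranges overlapped, then by FZD3 and FZD4. FZD8 and FZD6 overlapped there, and FZD5 and FZD1 came last, with values that did not overlap but deposited bounds that did. In female naive lines only FZD7 stood clear of the rest: FZD5, FZD8, FZD2, FZD6 and FZD3 overlapped at 6.72 to 27.2 FPKM, FZD4 followed at 6.07 and 3.51 FPKM, and FZD10 and FZD1 were lowest.

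The comparison of naive with primed lines weighs male and female naive lines equally. Both primed lines are male, so it cannot fully part state from sex. Naive lines had less FZD2 and FZD10 and more FZD5 than primed lines, and the other 6 receptors did not pass the test. Of the 3, only FZD2 was also called within males (limma adjusted p = 0.0406, against 0.239 for FZD5 and 0.606 for FZD10). FZD2 was 3.5-fold higher in primed lines by mean FPKM and FZD10 2.6-fold, while FZD5 was 11.2-fold higher in naive lines. Single libraries moved the last pair of folds: FZD10 was 1.56-fold without primed 1 and 4.35-fold without male naive 2, and FZD5 5.13-fold without female naive 1, 7.38-fold without primed 1 and 23.6-fold without primed 2. The 3 calls (limma on log2(FPKM + 1), Benjamini-Hochberg adjusted p under 0.05 over 13685 rows) stand beside a background of 11.3% of all rows called in this comparison, 6.72% higher and 4.59% lower. At an unadjusted p under 0.05 it was 7 of the 9, against 30.9% of all rows. The naive and primed ranges did not overlap for 6 of the 9 receptors, against 34.8% of all rows. The median difference was 0.06 over the 9 receptors and 0.03 over all rows, in log2(FPKM + 1), a scale on which changes of low genes come out too small. With upper-quartile scaling 5 receptors were called, FZD1 (adjusted p = 0.0411) and FZD3 (adjusted p = 0.0324) being added on the lower side. Over all 13685 rows that scaling called 684 higher and 930 lower, against 920 and 628 unscaled, and moved the median difference to -0.07.

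**Figure D2:**
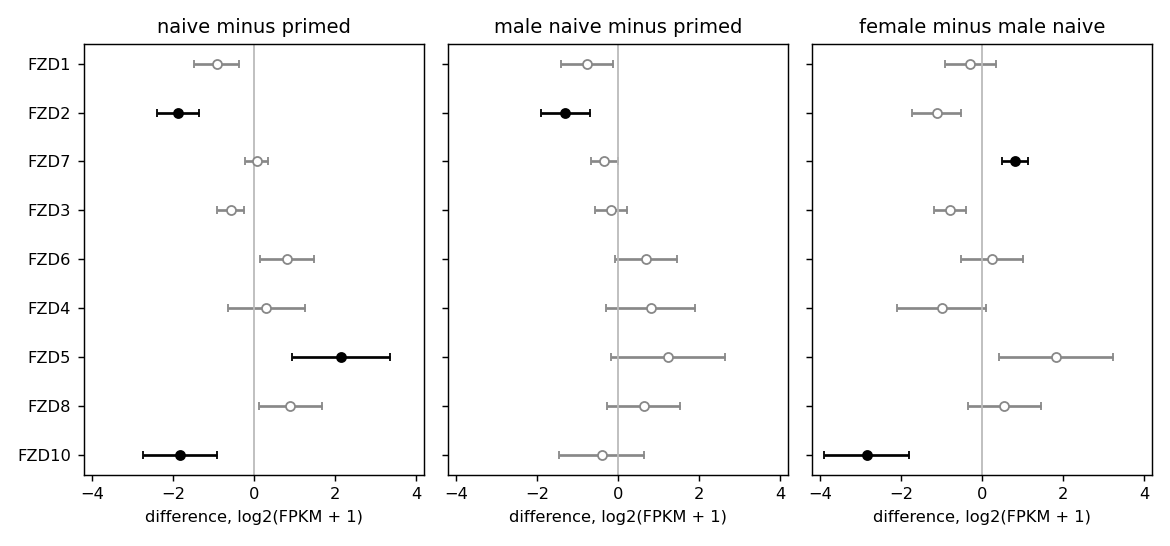
Difference in log2(FPKM + 1) (horizontal axis) for each Frizzled receptor in the 3 comparisons, with 95% confidence intervals from the limma fit to all 6 libraries. Filled black points have an adjusted p under 0.05: FZD2 (-1.87), FZD5 (2.14) and FZD10 (-1.83) for naive minus primed, FZD2 (-1.31) for male naive minus primed, and FZD7 (0.81) and FZD10 (-2.85) for female minus male naive.

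FZD1, FZD2 and FZD7 form 1 subfamily of closely related receptors. FZD2 (ENSMMUG00000011038, chromosome 16, 54649694 to 54651082), which is known for both beta-catenin and WNT5A signalling, was at 23.3 and 21.8 FPKM (male naive), 12.9 and 7.36 (female naive) and 57.5 and 57.0 (primed). The primed lines were highest, the female naive lines lowest, and no groups overlapped. In log2(FPKM + 1), FZD2 fell by 1.87 in naive lines (SE 0.22, adjusted p = 0.0102) and by 1.31 within males (SE 0.25, adjusted p = 0.0406). Both fits took the spread from all 6 libraries. With a replicate block, a term for library number, the call in naive lines held (adjusted p = 0.0211) and that within males was lost (0.0605). The first of these calls was lost without primed 1 (adjusted p = 0.0588) and with the 4 naive lines as a single group (0.0745). The call within males was lost without male naive 1 (adjusted p = 0.158), male naive 2 (0.183), primed 1 (0.119) or primed 2 (0.0984), with a pseudocount of 0.1 (0.0508) and with no filter on low values (0.0735).

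FZD7 (ENSMMUG00000013215, chromosome 12, 65840453 to 65844306), known as the main Frizzled receptor of human pluripotent cells, was at 57.2 and 53.0 FPKM (male naive), 105.5 and 89.1 (female naive) and 71.0 and 68.9 (primed). Both male naive lines lay below both primed lines and both female naive lines above them, so that the mean over naive lines hardly differed from primed (0.06 on the log2 scale, 95% interval -0.22 to 0.35, adjusted p = 0.748). That sign turned with upper-quartile scaling (-0.05) and quantile normalization (-0.10). Within males the difference was -0.34 (95% interval -0.67 to -0.01, adjusted p = 0.181). FZD7 rose by 0.81 in female against male naive lines (SE 0.13, adjusted p = 0.0375). FZD7 was the best measured member, with 473 fragments or more behind each value. The call between the sexes was nevertheless lost without male naive 1 (adjusted p = 0.175), male naive 2 (0.212), female naive 1 (0.141) or female naive 2 (0.114) and with no filter (0.0525).

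The ratio of FZD7 to FZD2 within a library separated all 3 groups, as FZD2 alone did. How often ratios of other gene pairs do so was not tested. FZD7 stood at 1.23 and 1.21 times FZD2 in primed, 2.46 and 2.43 times in male naive and 8.16 and 12.1 times in female naive libraries. The values of a pair lay close together in primed and in male naive lines and further apart in female naive lines. FZD1 (ENSMMUG00000022114, chromosome 3, 125954254 to 125956044), the third receptor of this subfamily, was low throughout, at 3.02 and 2.81 FPKM (male naive), 1.71 and 2.74 (female naive) and 6.3 and 5.12 (primed). Both primed lines lay above all 4 naive lines, yet the difference did not pass the test (-0.92, 95% interval -1.47 to -0.37, adjusted p = 0.0525).

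**Figure D3:**
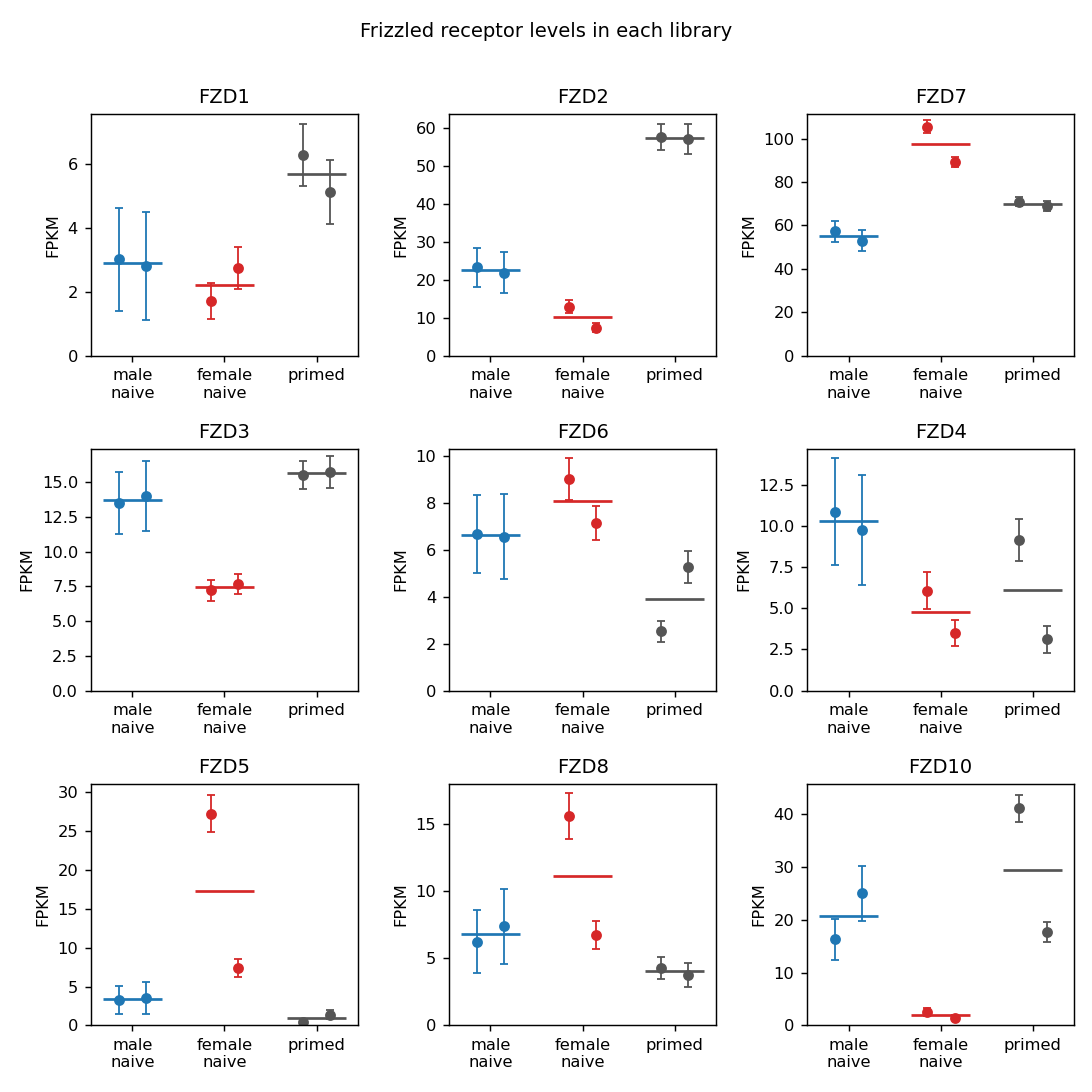
FPKM (vertical axis, from 0) of the 9 Frizzled receptors in male naive, female naive and primed lines. Each point is a library, library 1 on the left and 2 on the right, with the deposited bounds (2 SD of the estimate within that library), and each line is the mean of the group. FZD2 lies at 57.0 and 57.5 FPKM in primed lines and at 23.3 FPKM or less in all naive lines, and FZD10 at 2.53 FPKM or less in female naive lines.

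FZD5 and FZD8, the next pair of close relatives, were both higher in every naive library than in either primed one. FZD5 (ENSMMUG00000013656, chromosome 12, 71668998 to 71670602) was at 3.22 and 3.53 FPKM (male naive), 27.2 and 7.41 (female naive) and 0.439 and 1.4 (primed). Female naive 1 stood far above female naive 2, and primed 1 was lowest. FZD5 rose by 2.14 in naive lines (SE 0.5, adjusted p = 0.0459). The call was lost without male naive 1 (adjusted p = 0.108), male naive 2 (0.113), female naive 1 (0.064), primed 1 (0.196) or primed 2 (0.0895), without both male naive libraries (0.061), with no filter (0.0928) and with sex ignored (0.166). The replicate block also lost the FZD5 call (adjusted p = 0.0786). Within males the difference was 1.23 (95% interval -0.16 to 2.63, adjusted p = 0.239), and between the sexes of naive lines 1.82 (0.42 to 3.21, adjusted p = 0.149).

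FZD8 (ENSMMUG00000001694, chromosome 9, 35849972 to 35851714) was at 6.22 and 7.38 FPKM (male naive), 15.6 and 6.72 (female naive) and 4.29 and 3.77 (primed). Naive and primed ranges did not overlap, and female naive 1 was again the highest library. The difference between naive and primed lines was 0.9 (95% interval 0.12 to 1.68) and was not called (adjusted p = 0.119). FZD8 was the higher of the pair in male naive and primed libraries, at 1.93 and 2.09 times FZD5 in the former and 9.77 and 2.69 times in the latter, whereas FZD5 was 1.75 and 1.1 times FZD8 in female naive libraries.

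Of 5 tested markers of mesoderm and primitive streak 2 rose and 0 fell in naive lines, EOMES (3.1, adjusted p = 0.0233) and KDR (2.22, adjusted p = 0.00966). The 8 markers of that list summed to 16.2 to 47.4 FPKM in naive and 4.38 and 4.5 FPKM in primed libraries, with female naive 1 highest. Among naive libraries female naive 2 had the lowest sum, and its FZD5 was above both male naive values. T was lowest in the female naive lines, at 0.489 and 0.288 FPKM. The 6 endoderm markers looked up summed to 32.4 FPKM in female naive 1, 13.3 in female naive 2, 16.7 and 18.6 in male naive lines and 59.7 and 18.0 in primed 1 and 2. No marker of these 2 lists was at 0 in all libraries, although HAND1 and MESP1 did not exceed 0.394 FPKM. In bulk libraries fewer cells of a type and less RNA per cell cannot be told apart, and the part of these markers in the FZD5 and FZD8 values was not tested. CER1, a secreted inhibitor of Nodal, BMP and WNT, and LGR5, a receptor for R-spondins, were also highest in female naive 1, at 133.2 and 13.5 FPKM, against 17.1 and 1.54 FPKM in female naive 2.

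FZD3 and FZD6 are better known for planar cell polarity than for beta-catenin. FZD3 (ENSMMUG00000007486, chromosome 8, 28641333 to 28714116) was at 13.5 and 14 FPKM (male naive), 7.22 and 7.69 (female naive) and 15.6 and 15.8 (primed). The pairs were tight, the female naive lines were lowest and no groups overlapped. The differences were just outside the threshold, at -0.58 for naive against primed (95% interval -0.92 to -0.24, adjusted p = 0.0504) and -0.81 for female against male naive (-1.20 to -0.41, adjusted p = 0.0579). With quantile normalization and median-of-ratios scaling the former was called (adjusted p = 0.0491 and 0.0461).

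FZD6 (ENSMMUG00000019399, chromosome 8, 105817092 to 105851620) was at 6.69 and 6.57 FPKM (male naive), 9.04 and 7.16 (female naive) and 2.54 and 5.28 (primed). All naive libraries lay above both primed ones, which differed from each other 2-fold. The difference of 0.82 was not called (95% interval 0.16 to 1.48, adjusted p = 0.102). Without primed 2 it was 1.23 and was called (adjusted p = 0.0477), and without primed 1 it was 0.40 and was not (adjusted p = 0.322). Within a library FZD6 stood at 0.163 and 0.335 times FZD3 in primed, 0.495 and 0.469 times in male naive and 1.25 and 0.931 times in female naive libraries. This ratio did not overlap between groups, and neither did FZD3 or FZD6 alone.

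FZD4 (ENSMMUG00000004048, chromosome 14, 85256649 to 85260594), the receptor of norrin in retinal vessels, was at 10.9 and 9.77 FPKM (male naive), 6.07 and 3.51 (female naive) and 9.17 and 3.12 (primed). The primed lines spanned most of the range of the naive lines. No comparison of FZD4 was called: 0.3 for naive against primed (95% interval -0.65 to 1.26, adjusted p = 0.643), 0.81 within males (-0.30 to 1.91, adjusted p = 0.321) and -1.0 for female against male naive (-2.10 to 0.10, adjusted p = 0.272). The first of these turned to -0.35 when primed 2 was left out and to -0.20 when both male naive libraries were. NDP, which encodes norrin, stayed under 1 FPKM in 5 libraries and was at 3.97 FPKM in primed 1.

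The 2 primed lines were further apart for FZD4, FZD5, FZD6 and FZD10 than for the rest of the family. The 10 fibroblast and feeder markers matched summed to 73.2 FPKM in primed 1 and 332.8 in primed 2, and to 175.5 to 347.5 FPKM in naive libraries. LUM and POSTN, matrix genes of fibroblasts, were at 19.9 and 13 FPKM in primed 2 and at 0.11 and 0 in primed 1. The part of these markers in the receptor values was not tested.

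FZD10 (ENSMMUG00000006912, chromosome 11, 131430699 to 131432411) was at 16.3 and 25.0 FPKM (male naive), 2.53 and 1.44 (female naive) and 41.1 and 17.7 (primed). Both female naive lines were far below all 4 male lines, and male naive and primed lines overlapped. By mean FPKM male naive lines, which shared the medium, were 10.4-fold above female ones, and FZD10 fell by 2.85 between them (SE 0.43, adjusted p = 0.0297). Within males the difference was -0.40 (95% interval -1.45 to 0.65, adjusted p = 0.606), and it turned to 0.18 without primed 1. The fall of 1.83 in naive against primed lines (SE 0.37, adjusted p = 0.0337) thus joins a male difference that was not called to a larger female one. Without both male naive libraries it was -3.26 (adjusted p = 0.0319).

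Most of the fits that left out a library lost the FZD10 calls. For naive against primed the adjusted p was 0.0911 without male naive 1, 0.0758 without male naive 2, 0.0829 without female naive 1, 0.104 without female naive 2 and 0.117 without primed 1, and the call held without primed 2 (-2.41, adjusted p = 0.0291). It was 0.0687 with no filter, 0.0562 with the replicate block and 0.33 with sex ignored. For female against male naive it was 0.105, 0.165, 0.109 and 0.193 without each of the 4 naive libraries in the same order and 0.0699 with no filter, and the call held without either primed library. The direction was the same in each of these fits.

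Between female and male naive lines 2 of 9 receptors were called, FZD7 higher and FZD10 lower, against 3.31% of all rows (0.76% higher, 2.55% lower). At an unadjusted p under 0.05 it was 5 of 9, against 21.7%. Within males 1 of 9 was called, FZD2 lower in naive lines, against 5.39% of all rows (3.97% higher, 1.42% lower). At an unadjusted p under 0.05 it was 3 of 9, against 25.7%. Within males 8 of the 9 had ranges that did not overlap, against 56.4% of all rows, and FZD10 was the exception. The female and male naive ranges did not overlap for 8 of the 9 receptors, where 57% of all rows did not overlap, and FZD8 was the exception. The median difference over the 9 receptors was -0.30 for female against male naive (all rows -0.10) and -0.17 within males (all rows 0.09). With upper-quartile scaling the median of all rows moved to -0.07 for naive against primed, -0.08 within males and 0.03 between the sexes.

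The genes whose profile over the 6 libraries was most like that of FZD10 included known WNT targets. Likeness was the root mean square difference of log2(FPKM + 1) after centring each gene, over 8860 rows with a symbol and a mean of 5 FPKM or more. AXIN2, the negative-feedback scaffold induced by beta-catenin, was nearest (0.19), followed by the amino acid transporter SLC1A4 (0.197) and LEF1 (0.357), a DNA-binding partner of beta-catenin. AXIN2 was at 34.4 and 33.9 FPKM (male naive), 5.28 and 3.45 (female naive) and 76.4 and 29.2 (primed), and LEF1 at 12.3 and 17.7, 2.01 and 1.42, and 37.3 and 7.63 in the same order. Both were lowest in the female naive lines and more than 2-fold higher in primed 1 than in primed 2. They were chosen for likeness to FZD10 over these same libraries, so this shared pattern is no separate result. SP5, a transcription factor of the feedback list, was at 59.1 and 22.7 FPKM in primed 1 and 2 and under 3 FPKM in both female naive libraries. Other genes of that list did not follow. DKK1 (0.891 and 12.6 FPKM), LGR5 (0.821 and 4.29) and NKD2 (1.97 and 4.05) were lower in primed 1 than in primed 2. LGR5 was highest in female naive 1, and ZNRF3 in female naive 2 (9.42 FPKM) was above both male naive values (8.36 and 7.77).

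**Figure D4:**
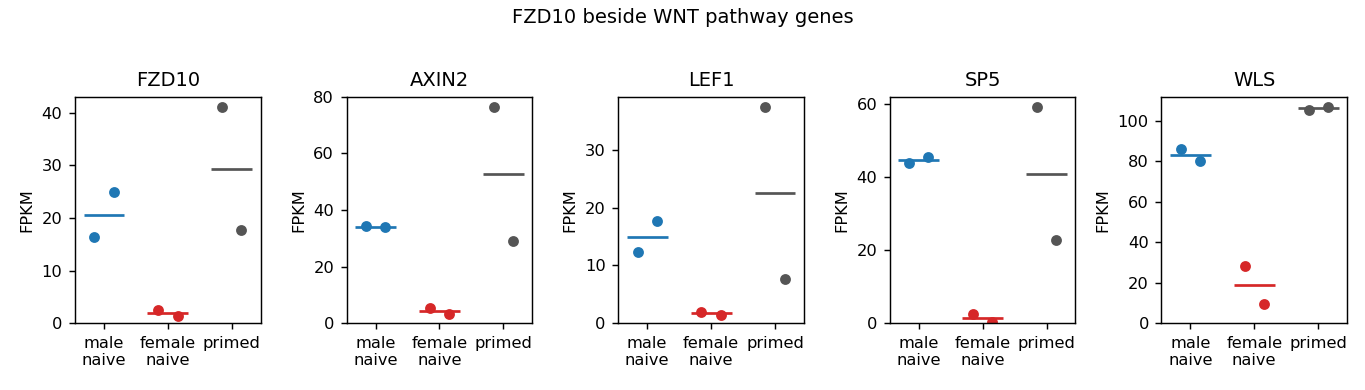
FPKM (vertical axes, from 0) of FZD10, AXIN2, LEF1, SP5 and WLS in male naive, female naive and primed lines. Each point is a library, library 1 on the left, and each line is the mean of the group. All 5 genes are lowest in the female naive lines, and the first 4 are more than 2-fold higher in primed 1 than in primed 2. AXIN2 and LEF1 were chosen for likeness to FZD10, and other feedback targets (DKK1, LGR5 and NKD2) were lower in primed 1 than in primed 2.

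The profiles most like the other called receptors came from other kinds of genes. For FZD2 they were LRIG3 (0.134), TMEM132C (0.146) and TMEM2 (0.159), all membrane proteins. LRIG3 was at 32.3 and 29.1 FPKM (male naive), 20.8 and 11.8 (female naive) and 68.1 and 80.1 (primed). For FZD5 they were LAD1 (0.327), ELTD1 (0.328) and CDH1 (0.354), which encodes the epithelial adhesion protein E-cadherin and was at 18.8 and 10.1 FPKM (female naive), 2.12 and 2.16 (male naive) and 0.0805 and 1.58 (primed). For FZD7 they included UQCR10 (0.0817) and CTSF (0.0863). These distances rest on 6 libraries in 3 groups and so on few independent points.

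Ligands for these receptors were mostly low. Of 20 ligand genes looked up, 10 reached the test, and 1 rose and 0 fell in naive against primed lines (median 0.62), 2 rose within males (median 1.20) and 1 fell in female against male naive lines (median -1.19). WNT4 rose by 1.43 in naive lines (adjusted p = 0.0322) and by 1.8 within males (adjusted p = 0.037), from 0.446 and 0.527 FPKM in primed to 3.1 and 5.52 in male naive libraries, there on 3.7 and 7.3 fragments. WNT5A, a ligand of FZD2 and ROR2, rose by 1.34 within males (adjusted p = 0.0438), at 6.15 and 6.09 FPKM in male naive against 1.51 and 2.16 in primed libraries. The WNT4 and WNT5A calls were lost whichever library was left out (adjusted p up to 0.119 for WNT4 in naive lines, 0.164 for WNT4 within males and 0.18 for WNT5A). WNT8A fell by 2.68 in female against male naive lines (adjusted p = 0.031), from 17.2 and 26.3 to 3.96 and 1.44 FPKM.

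WLS, which carries WNT proteins to the cell surface, was at 85.9 and 80.3 FPKM (male naive), 28.3 and 9.57 (female naive) and 105.4 and 107.1 (primed). The female naive lines were lowest, and both differences fell just short of the threshold (-2.26 for female against male naive, adjusted p = 0.0519, and -1.48 for naive against primed, adjusted p = 0.0565). With PORCN, the enzyme that lipidates WNT proteins, 0 of 2 tested genes of ligand maturation were called by limma in any comparison, and at an unadjusted p under 0.05 the number was 1, 0 and 1 (medians -0.89, -0.32 and -1.15 for naive against primed, within males and female against male naive).

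Among co-receptors GPC4 and ROR2 passed the test. LRP5 ran from 4.94 to 7.47 FPKM and LRP6 from 11.2 to 15 FPKM over all 6 libraries, and neither was called in any comparison. Of 10 tested co-receptors 1 rose and 1 fell in naive lines (median 0.14; 5 at an unadjusted p under 0.05), 1 rose within males (median 0.21) and 0 were called between the sexes (median -0.23; 2 at an unadjusted p under 0.05). The glypican GPC4, a heparan sulfate co-receptor, rose by 1.82 (adjusted p = 0.00507) in naive lines and by 1.95 (adjusted p = 0.00439) within males, from 24.8 and 27.4 FPKM in primed to 75.3 to 105.2 FPKM in naive libraries. Its call in naive lines held in all 14 alternative fits, and that within males was lost without male naive 2 (adjusted p = 0.0604). ROR2, a receptor kinase for WNT5A, fell by 0.75 (adjusted p = 0.0495), a call kept only without primed 2 among the fits that left out a library (adjusted p 0.0467 to 0.172).

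Genes that set Frizzled levels at the cell surface did not pass the test. Of 6 tested genes of Frizzled turnover 0 were called by limma in each comparison, and 2, 1 and 2 at an unadjusted p under 0.05 (medians -0.01 for naive against primed, 0.08 within males and -0.08 between the sexes). The ubiquitin ligases RNF43 and ZNRF3, which remove Frizzled from the membrane, were at 0.492 to 3.08 and 5.8 to 20.6 FPKM, and the R-spondin receptor LGR4 at 22.2 to 44.3 FPKM. ZNRF3 was highest in primed 1.

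Among secreted inhibitors 1 of 9 tested rose in naive lines (median 0.27), 0 were called within males (median 0.54; 2 at an unadjusted p under 0.05) and 1 rose and 1 fell between the sexes (median -0.54). SFRP1, a decoy with a Frizzled-like domain, was the most abundant of them in female naive lines, at 290.5 and 280.7 FPKM, against 121.4 and 110.1 (male naive) and 97.4 and 136.8 (primed). It rose by 1.3 in female against male naive lines (adjusted p = 0.0207) and by 0.65 in naive against primed lines (adjusted p = 0.0479). The latter was lost under each scaling, up to an adjusted p of 0.0883, and without each library other than primed 2, and was 0.41 without primed 1 (adjusted p = 0.111). WIF1, another WNT-binding inhibitor, fell by 2.13 in female against male naive lines (adjusted p = 0.00621), from 12.1 and 11.9 to 2.11 and 1.84 FPKM.

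Below the receptors, 0 of 16 tested transducers rose and 2 fell in naive lines (median -0.07), and 0 were called within males (median -0.01; 4 at an unadjusted p under 0.05) or between the sexes (median -0.16; 6). The 2 were DVL2 (-0.55, adjusted p = 0.0418), a Dishevelled protein, and PYGO1 (-1.02, adjusted p = 0.0267), a beta-catenin cofactor, and both calls were lost whichever library was left out (adjusted p up to 0.128 and 0.105). CTNNB1, which encodes beta-catenin, was at 183.8 to 265.3 FPKM in all libraries and was not called in any comparison. SMO, the related receptor of the Hedgehog pathway, was at 21.6 to 50.3 FPKM and was not called either.

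Of 11 tested feedback targets of beta-catenin 0 rose and 1 fell in naive lines (median -0.36), 0 were called within males (median 0.14; 2 at an unadjusted p under 0.05) and 3 fell in female against male naive lines (median -1.62). These were AXIN2 (-2.73, adjusted p = 0.0341), SP5 (-4.31, adjusted p = 0.0169) and SP8 (-1.76, adjusted p = 0.0399). AXIN2 was also the member that fell in naive against primed lines (-1.83, adjusted p = 0.0339), a value of -1.15 without primed 1 (adjusted p = 0.0789) and a call that, of the fits with a library left out, held only without primed 2 (-2.51, adjusted p = 0.0164). The 6 pathway genes called between the sexes (WNT8A, SFRP1, WIF1, AXIN2, SP5 and SP8) each lost the call without any of the 4 naive libraries (adjusted p up to 0.205) and kept it without either primed library. SP8 also lost it under each of the 3 scalings.

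Of 8 tested planar polarity partners of FZD3 and FZD6 1 rose and 3 fell in naive lines (median -0.10), where 11.3% of all rows were called, 1 rose and 2 fell within males (median -0.10) and 0 were called between the sexes (median -0.25; 1 at an unadjusted p under 0.05). CELSR2, an adhesion receptor that pairs across cells, was at 7.24 and 5.56 FPKM (male naive), 4.13 and 3.14 (female naive) and 26.1 and 20.2 (primed), and fell by 2.04 (adjusted p = 0.00869). VANGL2 fell by 0.99 (adjusted p = 0.0128) and CELSR1 by 1.69 (adjusted p = 0.028), while PRICKLE1, a cytoplasmic polarity protein, rose by 1.53 (adjusted p = 0.0102), from 6.01 and 5 FPKM in primed to 15.4 to 20.2 FPKM in naive libraries. CELSR2, VANGL2 and PRICKLE1 were called within males too (-1.70, -0.86 and 1.53). In naive against primed lines the CELSR2 and PRICKLE1 calls were lost only without primed 1 (adjusted p = 0.051 for both), VANGL2 also without either male naive library (up to 0.0603), and CELSR1 without each library other than primed 2 (up to 0.0927). Within males the 3 calls were lost without either male naive library and without primed 1, PRICKLE1 also without primed 2, and VANGL2 also without either female naive library (adjusted p up to 0.122, 0.12 and 0.176 for CELSR2, PRICKLE1 and VANGL2). With no filter on low values the naive against primed calls of WNT4, ROR2, SFRP1, PYGO1, CELSR1 and AXIN2, those of WNT4 and WNT5A within males and those of WNT8A, AXIN2 and SP8 between the sexes were lost (adjusted p 0.0543 to 0.0859).

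The 9 neural markers matched summed to 697.9 and 896.1 FPKM in primed, 339.1 and 370.9 in male naive and 199.9 and 300.6 in female naive libraries, and 0 of 7 tested rose and 4 fell in naive lines (median -1.84), with 2 lower within males. CRABP1 made up most of the primed sum, at 407.6 and 633.9 FPKM, and PAX6 was at 14.2 and 6.53 FPKM there. Without CRABP1, left out after its values were seen, the sum was 290.3 and 262.2 FPKM in primed lines and 310.1 and 284.5 FPKM in male naive lines. Most of this remainder was NES, which was not tested, at 165.4 and 170.2 FPKM in primed and 244.2 and 228.9 in male naive lines. In female naive 2 NES was at 263.1 FPKM on an estimate of 0.3 fragments, so the sum of 300.6 FPKM there is uncertain. Besides CRABP1, the markers that fell in naive lines were MAP2 (-1.39), NCAM1 (-1.84) and ZNF521 (-2.08). TUBB3 overlapped between primed and male naive lines. The part of these markers in the receptor values was not tested.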

How the data were processed

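RNA sequencing of 6 rhesus monkey iPSC libraries was analysed, grouped by title and gender label into male naive, female naive and primed lines, with 2 libraries each. Per the submitters' processing notes, TopHat 1.3.0 served for alignment. Build, annotation and quantifier version: not given in the sources used here. The authors deposited FPKM per gene with bounds, per the file headers, with no stated scaling between libraries. The bounds lie 2 SD from FPKM, so dividing 2 times FPKM by the upper half-width and squaring the quotient estimates the fragments behind a value. Of such estimates under 50, 56.5% to 62.6% per library were whole within 0.05. The bounds leave out the spread between lines, and in some rows they are wider than counting error would give. NES was at 263.1 FPKM in female naive 2 on an estimate of 0.3 fragments. CTNNB1 was at 227.4 and 240.2 FPKM in male naive 1 and 2 on estimates of 1356.2 and 144.2. Such estimates cannot be read as fragments, and the depth totals include them.

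Rows that reached 1 FPKM in 2 libraries or more, with no failed status (13685 rows; 40 left out for status) were fitted with limma 3.58.1 in R 4.3.3 on log2(FPKM + 1), with a mean per group and a trended prior (3 residual degrees of freedom). P-values are two-sided and measure the spread between these lines. Fits that leave a group with 1 library assume that it varies like the others. The fit was tested on simulated data. Start positions were raised by 1, on the reading that the files count from 0. The spans of FZD1, FZD2, FZD5, FZD8 and FZD10 (1389 to 1791 bp) are then multiples of 3. Whether these models hold UTRs was not tested.

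All members are named, with the 3 nearest profiles of each called member (1 of them is not reported here) and, of the pathway lists, up to 4 called genes per list and a fixed set of others. Other genes (SLC1A4, LEF1, CER1, LGR5, NDP, LUM, POSTN and PORCN among them) were named as nearest profiles or after their values were seen. Members, lists and tests were chosen with earlier results of these data known.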

Additional observations from a re-analysis of the deposited data

Results flagged for a closer look

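Of 9 receptors and 67 pathway genes tested, 8 were called by limma's test of female against male naive, where 3.31% of all rows were called. That test equals the difference of the 2 effects against primed, since both use the same primed lines. Each of the 8 calls was lost, as given above, when any 1 of the 4 naive libraries was left out. The 8 genes were FZD7 (0.81, adjusted p = 0.0375) and FZD10 (-2.85, adjusted p = 0.0297) among the receptors and WNT8A (-2.68), SFRP1 (1.3), WIF1 (-2.13), AXIN2 (-2.73), SP5 (-4.31) and SP8 (-1.76) among the pathway genes, all on the log2(FPKM + 1) scale. FZD7 was below both primed libraries in both male naive libraries and above them in both female ones. Sex and any other feature of the female lines cannot be told apart, and the male naive libraries were also the shallowest.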

How the results depend on the processing

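Depth limits FZD1, FZD5 and FZD8 in male naive lines most, and with 2 lines per group few calls survive the loss of a library. The number of receptors called (3 for naive against primed, 1 within males, 2 between the sexes of naive lines) ranged from 0 to 3, 0 to 1 and 0 to 2 when each replicate was left out in turn. For naive against primed it was 1 with no filter, 1 with the replicate block, 5 with upper-quartile scaling and 0 with sex ignored. Within males it was 0 with a pseudocount of 0.1, with no filter and with the block, and between the sexes 0 with no filter and with the block. Rows called over all genes (1548, 738 and 453) were 941, 400 and 268 with no filter (rows at 0 in every library left out) and 812, 373 and 207 with the replicate block. They were 250 with sex ignored and 625 without both male naive libraries for naive against primed, 348 in the compared groups alone within males, and 177 to 1081, 51 to 626 and 41 to 523 without each replicate. Upper-quartile scaling split them into 684 higher and 930 lower (920 and 628 unscaled), within males 372 and 390 (543 and 195) and between the sexes 111 and 212 (104 and 349). Quantile normalization gave 399 and 294 within males and 118 and 223 between the sexes, median-of-ratios scaling 418 and 255 and 114 and 219. Signs turned for FZD4 (-0.35 without primed 2 to 0.96 without primed 1, -0.20 without both male naive libraries) and FZD7 (-0.053 with upper-quartile scaling, -0.10 with quantile normalization) in naive against primed, for FZD10 within males (-0.99 without primed 2 to 0.18 without primed 1) and for FZD8 between the sexes (-0.011 without female naive 1 to 1.09 without female naive 2). None of these was called. Of all such fits of single receptors 311 kept direction and side of the threshold, 38 lost a call, 5 gained one and 6 turned sign. The cause was not tested. The difference of library 1 from library 2 was correlated between groups over 13685 genes (r -0.06, -0.05 and -0.26 for the 3 pairs of groups). Each group gives only 1 such difference per gene, so whether same-numbered libraries share more than a number cannot be told. Each symbol had 1 row, so no further row could be tried.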
